A study of Homo sapiens with 6 samples.

Results

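The genes described here are those whose symbols start with KCN, the approved root for potassium channel subunits. The deposited tables list 82 of them among 16832 gene symbols. They were chosen by symbol alone. Of the 82, 18 reached an FPKM (fragments scaled to transcript length and library depth) of 1 or more in at least 3 of the 6 libraries, and 64 stayed below that level. Across all symbols, 11506 reached it.

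RNA was sequenced from U251, an established human glioma cell line that the labels give as wild type. In 3 libraries the cells had been incubated for 18 days with SLCDS, a small-molecule combination whose components the labels do not name. In 3 Control libraries the cells received PBS and no SLCDS, and the labels give no culture time for them, so time in culture cannot be told apart from treatment. By its title the study treats SLCDS-exposed cells as neuronal-like, and the comparison asks which potassium channel genes differed between treated and untreated cells. All 6 libraries come from 1 cell line, and nothing in the labels says that replicates were separate cultures, so the p-values measure only the spread between these libraries.

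Potassium channels are membrane pores that let potassium leave or enter the cell along its gradient, and they set the resting potential and the shape of electrical signals. Voltage-gated channels open on depolarization, calcium-activated channels open when cytoplasmic calcium rises, inward rectifiers pass current best near rest, and the leak channels of the KCNK family stay open over a wide voltage range. Auxiliary subunits carry no pore of their own but change the gating or surface delivery of the pore-forming subunits. Neurons rely on many of these channels for spiking, while astrocytes and glioma cells are known for inward rectifiers and calcium-activated channels.

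The libraries held 15912734 to 16814857 fragments over the listed symbols, read from the steps between FPKM values. At this depth 1 fragment corresponded to an FPKM of 0.0204 for KCNE4 and of 0.0304 for KCNN4 in SLCDS replicate 1. Control replicate 3 stood apart. Across genes its log2 values had Pearson correlations of 0.9765 and 0.9767 with the other controls, while replicate pairs without it had 0.9966 to 0.997. Relative to the other controls it was higher by a median of 0.361 on the log2 scale in the shortest of 4 equal groups of genes by transcript length. It was lower, with a median difference of -0.312, in the longest group. Fold changes are therefore given with and without this library.

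Markers of the cell types the cultures could hold were read from the same fit. With all libraries it called 4.28% of all genes tested higher and 1.82% lower. Without Control replicate 3, 16.0% of all genes were called higher and 11.8% lower. Of 7 astrocyte and glioma markers tested GFAP and GJA1 fell and none rose, with summed FPKM of 2410 to 2500 in SLCDS and 2540 to 2940 in Control. VIM was between 1370 and 1730 FPKM, SOX2 between 370 and 445 and NES between 201 and 256. Of the 3 markers below the level AQP4 and ALDH1L1 stayed under 0.25, and the other was higher in every SLCDS library than in any Control library. Of the 7, 2 were called higher and 4 lower without Control replicate 3. Of 5 neuronal markers tested none passed with all libraries, and without Control replicate 3 SYP, NEFL and SNAP25 were called higher and TUBB3 and MAP2 lower. SYP had entered the test through its SLCDS libraries alone, so its difference is in part fixed by the level required. The neuronal sums were 81.1 to 83.2 in SLCDS and 87.0 to 93.7 in Control, and RBFOX3, a mature-neuron marker, was at most 0.0206. Some other neuronal markers below the level were higher in every SLCDS library than in any Control library, and the rest overlapped. The most abundant of those higher was at 0.796 to 0.998 FPKM in SLCDS and 0.459 to 0.613 in Control. Of 4 mural and fibroblast markers tested PDGFRB and ACTA2 rose with or without that library, PDGFRB having entered the test through its SLCDS libraries alone. The sums of this list were 372 to 380 in SLCDS and 367 to 399 in Control, and DCN was at most 0.0344. A collagen gene that did not pass made up most of these sums. Another collagen gene, below the level, was at 0.462 to 0.663 FPKM in SLCDS and 0.881 to 1.16 in Control. Apart from it and DCN, the markers of this list below the level were higher in every SLCDS library than in any Control library. The only endothelial marker tested, CDH5, rose with or without that library, with sums of 4.96 to 5.88 and 2.12 to 3.0 and PECAM1 at most 0.104. Of 3 oligodendrocyte markers tested 1 rose (OLIG2) and 1 fell, or 2 and 1 without that library, and SOX10 was at most 0.0412. For microglia and leukocytes the sums were 3.59 to 4.77 and 2.83 to 3.15, PTPRC was at most 0.0485, and the 1 marker tested, CD68, was called higher without that library alone. The part these markers have in the potassium channel results was not tested.

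Promoter sequence is shown for members that moved together in the comparison described next. Of the 82 members, 62 matched an entry of the RefSeq promoter table (GRCh38.p14), among them KCNJ2, KCNJ4 and KCNN1 of the members that rose, and not KCNE4. The 250 bases before the annotated start are printed 5′ to 3′ on the gene's strand. Capitals mark the GC box (GGGCGG, or CCGCCC on the other strand) and the AP-1 motif (TGANTCA).
KCNJ2, chr17:70169282-70169531, plus strand: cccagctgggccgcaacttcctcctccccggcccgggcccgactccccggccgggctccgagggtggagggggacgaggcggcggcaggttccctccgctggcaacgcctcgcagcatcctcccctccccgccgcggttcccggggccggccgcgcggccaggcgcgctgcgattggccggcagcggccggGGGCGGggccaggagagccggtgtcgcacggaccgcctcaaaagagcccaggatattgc
KCNJ4, chr22:38444029-38444278, minus strand: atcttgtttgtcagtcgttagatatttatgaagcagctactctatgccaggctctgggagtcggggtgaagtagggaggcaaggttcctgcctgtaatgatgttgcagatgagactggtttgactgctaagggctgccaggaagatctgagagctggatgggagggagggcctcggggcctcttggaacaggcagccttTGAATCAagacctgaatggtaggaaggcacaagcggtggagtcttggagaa
KCNN1, chr19:17966857-17967106, plus strand: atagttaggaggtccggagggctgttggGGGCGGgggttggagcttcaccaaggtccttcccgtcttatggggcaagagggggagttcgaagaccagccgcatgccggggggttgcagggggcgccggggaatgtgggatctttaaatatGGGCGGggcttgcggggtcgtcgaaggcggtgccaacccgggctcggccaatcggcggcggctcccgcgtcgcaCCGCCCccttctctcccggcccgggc
The 3 windows differ in composition. KCNJ2 holds 32 CpG dinucleotides at 77.6% GC with 1 GC box, KCNN1 holds 24 at 68.8% with 3 GC boxes, and KCNJ4 holds 4 at 52.4% with no GC box and 1 AP-1 match. In windows of 300 bases, which add the 50 bases after the start, a GC box occurred in 39 of the 62 matched members and in 44.59% of all 27305 promoters in the table, both strands searched. An AP-1 match occurred in 3 of the 62 members and in 7.76% of all promoters. The other motifs searched were the cAMP response element (TGACGTCA), in 1 member and 1.98% of promoters, the E-box (CACGTG), in 2 and 7.43%, and the TATA box (TATAAA), in 5 and 11.95%. The outer parts of the RE1 element bound by the neuronal repressor REST (TTCAGCACC and GGACAGC) were found in 2 and 11 members and in 0.4% and 6.11% of promoters. No member held the EGR motif (GCGTGGGCG), which occurred in 0.78% of promoters. An EGR match followed by G would also hold a GC box. These matches describe letters in a window and not binding sites.

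Of the 18 members tested, 5 rose with SLCDS and none fell at an adjusted p under 0.05 in the limma fit across 11506 genes. The risers included KCNE4, KCNN1, KCNJ2 and KCNJ4. Of these, KCNN1 entered the test through its SLCDS libraries alone, so its place in the counts given here is in part fixed by the level required. This limit extends in part to KCNJ2 and KCNJ4, which met the level in every SLCDS library. Control replicates 1 and 3 of KCNJ2 and Control replicates 1 and 2 of KCNJ4 were below it. Over all genes tested, 4.28% were called higher and 1.82% lower, and the median log2 fold change was 0.00 against 0.08 over the 18 members. Without Control replicate 3 the same 5 members were called higher and none lower, against a background of 16.0% higher and 11.8% lower. In 8 of the 18 tested members every SLCDS library lay above every Control library (the 5 risers with KCND1, KCND3 and KCNIP3). The share over all genes tested was 15.5%. In none of the 18 did every SLCDS library lie below every Control library, where the share was 13.6%. All fold changes from this fit are on the log2(FPKM + 1) scale, which understates the change of genes near or below 1.

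**Figure D1:**
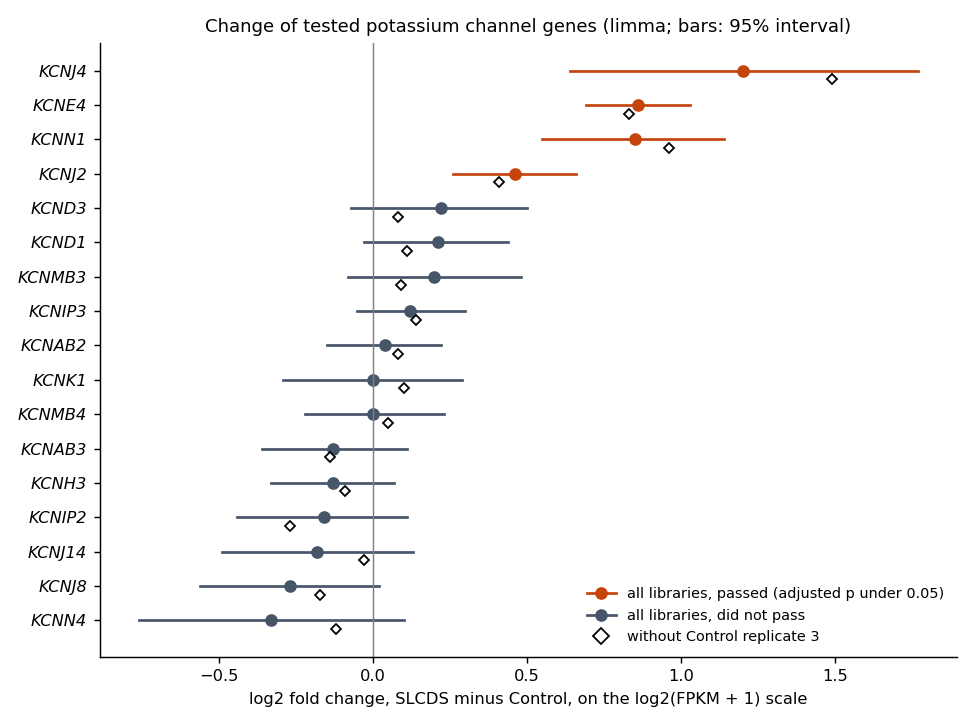
Change of 17 tested members. The horizontal axis is the log2 fold change, SLCDS minus Control, on the log2(FPKM + 1) scale; filled points are the limma estimates with 95% intervals over 6 libraries, orange where the adjusted p is under 0.05, and open diamonds are the estimates without Control replicate 3. The 4 orange members lie between 0.46 and 1.2, and the lowest estimate is that of KCNN4 at -0.33.

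Summed over all 82 members, the potassium channel genes made up 0.0344% to 0.0471% of the FPKM total of a library. Their sums were 146, 136 and 139 FPKM in SLCDS and 105, 105 and 120 in Control, so the groups did not overlap. Most of this came from KCNE4 and KCNN4, which together held 61.6% ± 1.95 (SD, n = 3) of it in SLCDS and 59.0% ± 1.6 in Control. Without them the sums were 53.7 ± 0.742 and 45.0 ± 1.75 FPKM. The ratio of KCNE4 to KCNN4 was 2.35, 2.67 and 2.8 in SLCDS and 1.36, 1.3 and 0.788 in Control. KCNE4 was thus the more abundant of the pair in every library except Control replicate 3, where KCNN4 exceeded it.

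**Figure D2:**
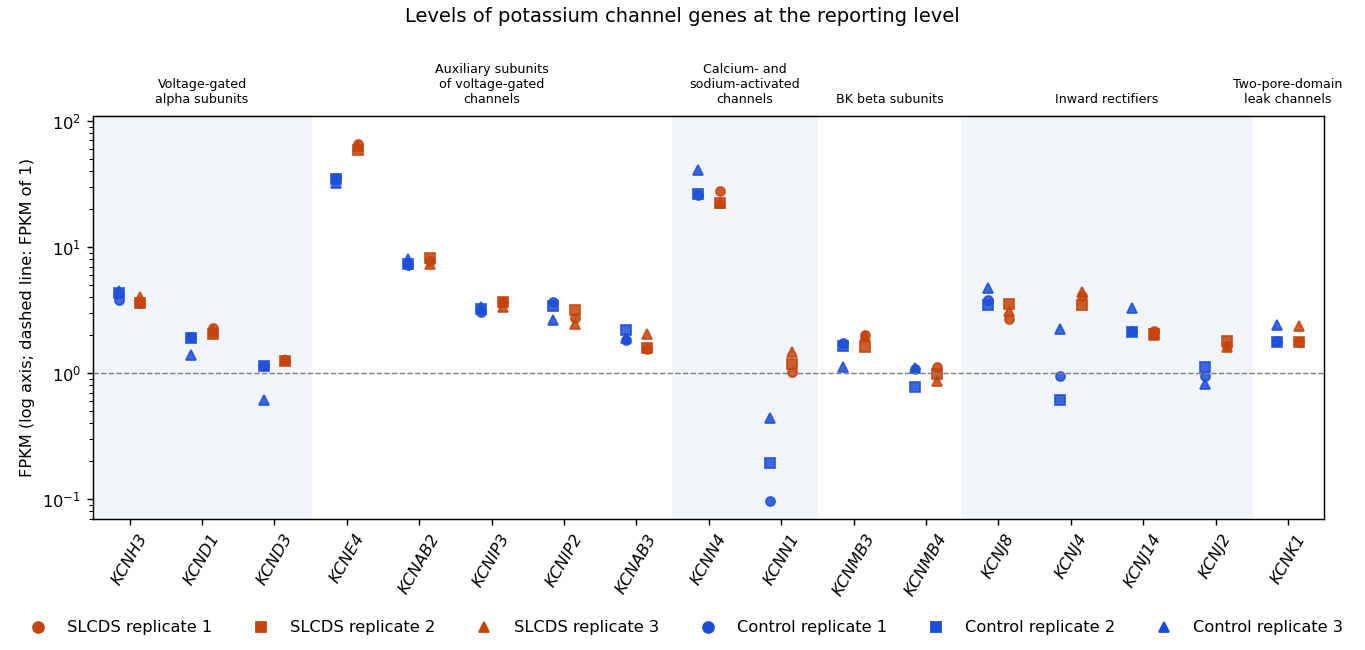
FPKM of 17 members at the reporting level, on a log axis, grouped by structural class. Each symbol is 1 library, with blue for Control and orange for SLCDS and a shape for each replicate number; the dashed line marks an FPKM of 1. KCNE4 and KCNN4 stand above 20 FPKM in every library, and the Control libraries of KCNN1 lie under 0.5.

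Among the voltage-gated alpha subunits, which form the pore, 29 symbols were listed and 4 were tested. The 3 described here did not pass. KCND1 and KCND3 encode A-type channels, whose current inactivates fast. KCND1 was at 2.27, 2.06 and 2.14 FPKM in SLCDS and 1.94, 1.9 and 1.4 in Control. KCND3 was at 1.27, 1.25 and 1.27 against 1.14, 1.13 and 0.616. In both genes the groups did not overlap, and Control replicate 3 was the lowest library. The log2 fold change was 0.21 for KCND1 (SE 0.10, limma adjusted p = 0.335) and 0.11 without that library. For KCND3 it was 0.22 (SE 0.12, limma adjusted p = 0.407) and 0.08 without it. KCNH3, an ether-a-go-go-like channel of the forebrain, was the most abundant of these over the 6 libraries. It was at 3.59, 3.62 and 4.03 FPKM in SLCDS and 3.82, 4.31 and 4.46 in Control, with overlapping groups and a log2 fold change of -0.13 (SE 0.08, limma adjusted p = 0.489), or -0.09 without Control replicate 3.

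The auxiliary subunits of voltage-gated channels were the most abundant class, with 13 symbols listed, 5 tested and 1 called. Their summed FPKM was 79.1 ± 2.86 in SLCDS and 50.5 ± 1.53 in Control. KCNE4, a small single-span subunit known to inhibit several voltage-gated channels, held 74.3% of the class, and without it the class sums were 16.7 and 16.6. KCNE4 was at 65.4, 59.2 and 62.6 FPKM in SLCDS and 35.0, 34.5 and 32.2 in Control. The treated libraries lay far above the controls, with little spread in either group. With 1591 to 3206 fragments per library it had the most fragments of the 82 genes. The means were 62.4 ± 3.08 and 33.9 ± 1.51, and KCNE4 rose by 0.86 on the log2 scale (SE 0.07, limma adjusted p = 0.000943), or by 0.83 without Control replicate 3 (adjusted p = 2.12e-06). In bulk RNA, more transcript per cell and more cells that express the gene cannot be told apart, here and for the other members. Of the KCNQ genes, a family whose products assemble with KCNE subunits, KCNQ5 reached 0.64 FPKM and KCNQ3 stayed at or under 0.00496.

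The remaining 4 tested auxiliary subunits did not pass. KCNAB2 and KCNAB3 encode cytoplasmic beta subunits of the KCNA channels. KCNAB2 was at 7.74, 8.12 and 7.28 FPKM in SLCDS and 7.19, 7.31 and 8.0 in Control, with a log2 fold change of 0.04 (95% interval -0.15 to 0.22), or 0.08 without Control replicate 3. KCNAB3 was at 1.56, 1.59 and 2.06 against 1.83, 2.21 and 1.91 (-0.13, interval -0.36 to 0.11, or -0.14 without that library). Both pairs of groups overlapped. KCNIP2 and KCNIP3 are calcium-binding partners of the KCND channels. KCNIP3 was at 3.67, 3.64 and 3.37 FPKM in SLCDS and 3.04, 3.21 and 3.32 in Control, groups that did not overlap but lay close (log2 fold change 0.12, SE 0.07, limma adjusted p = 0.456, or 0.14 without Control replicate 3). KCNIP2 was at 2.73, 3.16 and 2.45 against 3.65, 3.41 and 2.66. Its log2 fold change was -0.16 (SE 0.12, limma adjusted p = 0.538), and -0.27 without Control replicate 3 (adjusted p = 0.0514). With libraries weighted by their fit to the model, where Control replicate 3 had a weight of 0.07 and the others 1.49 to 2.1, KCNIP2 fell by 0.27 (limma adjusted p = 0.0303).

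Calcium- and sodium-activated channels comprised 8 symbols, of which 2 were tested and 1 rose. Their summed FPKM was 26.5 ± 3.11 in SLCDS and 32.0 ± 8.55 in Control, and KCNN4 held 94.3% of it. Without KCNN4 the class mean was 2.37 in SLCDS and 0.981 in Control. KCNN4 encodes the intermediate-conductance calcium-activated channel, which is known for high levels in glioma cells. It was at 27.8, 22.2 and 22.3 FPKM in SLCDS and 25.8, 26.5 and 40.8 in Control. Control replicate 3 was far above the other 5 libraries, which overlapped. The log2 fold change was -0.33 (SE 0.18, limma adjusted p = 0.41), and -0.12 without Control replicate 3 (adjusted p = 0.328). On the log2 scale Control replicate 3 exceeded the other controls by 0.623 for KCNN4 and by a median of 0.361 for its length group, the shortest of the 4, and the part of length in the KCNN4 value was not tested.

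KCNN1 encodes a small-conductance calcium-activated channel that contributes to the after-hyperpolarization of neurons. It was at 1.02, 1.18 and 1.48 FPKM in SLCDS and 0.096, 0.192 and 0.438 in Control. It entered the test through its SLCDS libraries alone, so its difference is in part fixed by the level required. These values rest on 44, 50 and 65 fragments in SLCDS and on 4, 8 and 19 in Control. The exact Poisson 95% intervals, which cover counting error only, ran from 32.0 to 59.1 for the lowest SLCDS library and from 11.4 to 29.7 for the highest Control library. KCNN1 rose by 0.85 on the log2(FPKM + 1) scale (SE 0.13, limma adjusted p = 0.00979), and by 0.96 without Control replicate 3 (adjusted p = 0.000157). Without SLCDS replicate 2 the log2 fold change was 0.86 and the adjusted p was 0.0522.

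The BK beta subunits, which tune the calcium sensitivity of the large-conductance channel, comprised 4 symbols, of which 2 were tested and none called. KCNMB3 was at 1.99, 1.62 and 1.97 FPKM in SLCDS and 1.73, 1.65 and 1.11 in Control (log2 fold change 0.20, SE 0.12, limma adjusted p = 0.44, or 0.09 without Control replicate 3). In GENCODE v29 its exons share 3403 bases with another listed gene on the opposite strand. The counting is not stated to use strand, so reads of the pair may not have been separated. KCNMB4, the neuronal beta subunit, was at 1.11, 0.989 and 0.866 against 1.08, 0.776 and 1.1, a log2 fold change of 0.00 with an interval from -0.22 to 0.23 (0.05 without Control replicate 3). The members just inside the reporting level were KCNN1 and KCNMB4, whose third-highest library was at 1.02 and 1.08 FPKM. Just outside it were KCNS3, a silent modifier subunit at 0.738 to 0.933 FPKM, and KCNH2, the rapid delayed rectifier of the heart at 0.496 to 0.975.

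Of 14 inward rectifier symbols, 4 were tested and 2 rose. The summed FPKM of the class was 11.4 ± 0.24 in SLCDS and 9.42 ± 2.04 in Control. KCNJ2 and KCNJ4 encode strong inward rectifiers of the same subfamily, which hold the membrane near the potassium potential. KCNJ4 was at 4.09, 3.47 and 4.42 FPKM in SLCDS and 0.954, 0.608 and 2.22 in Control. All treated libraries lay above all controls, and Control replicate 3 was the highest control. These values rest on 146, 122 and 161 fragments against 33, 21 and 80. KCNJ4 rose by 1.2 on the log2 scale (SE 0.24, limma adjusted p = 0.0301), and by 1.49 without Control replicate 3 (adjusted p = 8.79e-06). The call was lost when any 1 of the other 5 libraries was left out. The log2 fold change was then 1.19, 1.28 and 1.14 without SLCDS replicates 1, 2 and 3 (limma adjusted p = 0.137, 0.099 and 0.139). It was 1.13 and 0.99 without Control replicates 1 and 2 (limma adjusted p = 0.0988 and 0.0715).

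KCNJ2 was at 1.65, 1.81 and 1.62 FPKM in SLCDS and 0.956, 1.12 and 0.82 in Control. The lowest treated library was above the highest control. Fragments numbered 150, 162 and 150 against 84, 98 and 75. KCNJ2 rose by 0.46 on the log2 scale (SE 0.09, limma adjusted p = 0.0233), and by 0.41 without Control replicate 3 (adjusted p = 0.00615). The call was lost without SLCDS replicates 1, 2 or 3, at log2 fold changes of 0.47, 0.43 and 0.48 (limma adjusted p = 0.103, 0.12 and 0.0918), and without Control replicate 1, at 0.46 (0.0776).

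**Figure D3:**
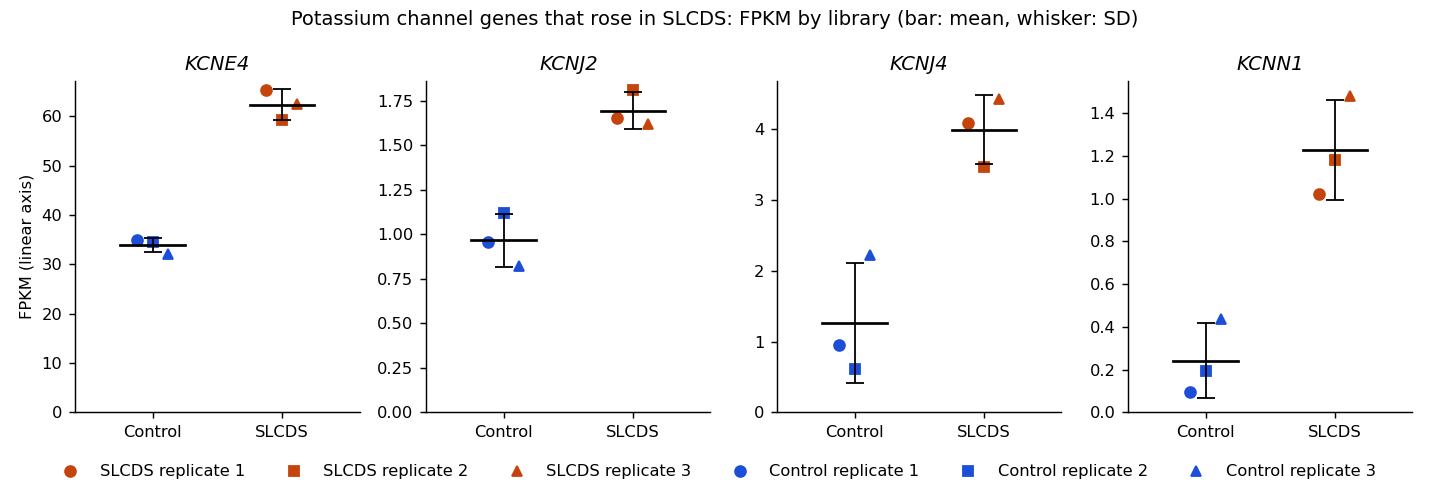
FPKM by library of 4 members that rose, on linear axes that start at 0 and differ between panels. Each symbol is 1 library, the bar is the group mean and the whisker the SD (n = 3). In every panel the SLCDS libraries lie above the Control libraries, by the widest margin relative to the control mean in KCNN1 and with Control replicate 3 the highest control in KCNJ4 and KCNN1.

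The other tested inward rectifiers did not pass. KCNJ8, the pore of vascular ATP-sensitive channels, was at 2.69, 3.55 and 3.11 FPKM in SLCDS and 3.78, 3.44 and 4.72 in Control. Its log2 fold change was -0.27 (SE 0.12, limma adjusted p = 0.306), and -0.17 without Control replicate 3. KCNJ14, a further strong rectifier, was at 2.16, 2.04 and 2.0 against 2.17, 2.11 and 3.27, with a log2 fold change of -0.18 (SE 0.13, limma adjusted p = 0.537) and of -0.03 without Control replicate 3. In both genes the groups overlapped and Control replicate 3 was the highest of the 6 libraries. KCNJ14 shares 350 exonic bases with GRWD1 on the same strand.

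Of 13 leak channel symbols of the KCNK family only KCNK1 was tested. It was at 1.78, 1.77 and 2.38 FPKM in SLCDS and 1.79, 1.75 and 2.39 in Control. The values of the groups were nearly the same library by library, with a log2 fold change of 0.00 and an interval from -0.29 to 0.29, or of 0.10 without Control replicate 3. The summed FPKM of the class was 3.95 ± 0.582 in SLCDS and 3.26 ± 0.83 in Control.

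The 64 members below the reporting level included 10 that reached 0.5 FPKM in at least 1 library. For 21 of the 64 the fragment numbers allowed a test in limma voom, on genes with at least 10 fragments in 3 or more libraries. It does not rest on the FPKM level, but a gene could meet the fragment level through its SLCDS libraries alone. This test was chosen after the data had been seen. Over all 39 members it covered, 10 were higher and none lower. Of all 13197 genes it covered, 5.14% were called higher and 1.81% lower. The 10 were the 5 risers of the FPKM fit and KCNMA1, KCNA2, KCNK3, KCNG1 and KCNN3.

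KCNMA1 encodes the large-conductance calcium-activated channel, long studied in glioma. It was at 0.52, 0.497 and 0.528 FPKM in SLCDS and 0.234, 0.238 and 0.178 in Control. Its transcript is long, so these low levels rest on 321, 302 and 333 fragments against 140, 142 and 111, and the groups were far apart. The log2 fold change of fragments was 1.26 (SE 0.13, limma voom adjusted p = 0.00209), and 1.12 without Control replicate 3 (adjusted p = 1.53e-07).

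KCNA2, a low-threshold delayed rectifier of axons, had 148, 117 and 104 fragments in SLCDS and 35, 40 and 22 in Control. Its FPKM was 0.47 to 0.683 against 0.101 to 0.191. The groups did not overlap, and the log2 fold change of fragments was 1.91 (SE 0.27, limma voom adjusted p = 0.00719), or 1.64 without Control replicate 3. KCNK3, an acid-sensitive leak channel, had 61, 92 and 73 fragments against 19, 16 and 31, at 0.579 to 0.887 FPKM against 0.157 to 0.292. Its log2 fold change was 1.75 (SE 0.29, limma voom adjusted p = 0.0136), or 2.01 without Control replicate 3. KCNG1, a silent modifier subunit, had 31, 55 and 47 fragments against 5, 20 and 5, at 0.374 to 0.675 FPKM against 0.0599 to 0.25. Control replicate 2 was the highest control and remained under every treated library (log2 fold change 2.33, SE 0.51, limma voom adjusted p = 0.0387, or 1.99 without Control replicate 3).

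KCNN3, another small-conductance channel, was named for its call and not for its level, after its values were seen. It had 17, 14 and 13 fragments in SLCDS and 6, 5 and 5 in Control (log2 fold change 1.34, SE 0.30, limma voom adjusted p = 0.0421, or 1.28 without Control replicate 3). KCNN3 met the fragment level through its SLCDS libraries alone, so its difference is in part fixed by that level. Without Control replicate 3 the voom fit called 14 members higher, against 16.2% of all genes, and 2 lower, against 13.5%. The added higher calls included KCNH8, KCNK12 and KCNK15, and the lower ones were KCNH1 and KCNH5, chosen here for those calls. Like KCNN3, KCNH8, KCNK12 and KCNK15 met the fragment level through their SLCDS libraries alone. KCNH1, the ether-a-go-go channel known from many tumours, had 19, 22 and 15 fragments in SLCDS and 65, 36 and 25 in Control. The groups did not overlap, and Control replicate 3 was the closest control to the treated libraries. Its log2 fold change was -1.08 with all libraries (SE 0.41, limma voom adjusted p = 0.2) and -1.42 without Control replicate 3 (adjusted p = 0.00147). In GENCODE v29 KCNH1 exons share 3618 bases with an unlisted gene on the opposite strand and 1582 with another on the same strand. KCNH5, its brain-expressed relative, had 32, 44 and 22 fragments against 43, 67 and 21, with overlapping groups and log2 fold changes of -0.35 with all libraries (limma voom adjusted p = 0.75) and -0.82 without Control replicate 3 (adjusted p = 0.0365).

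**Figure D4:**
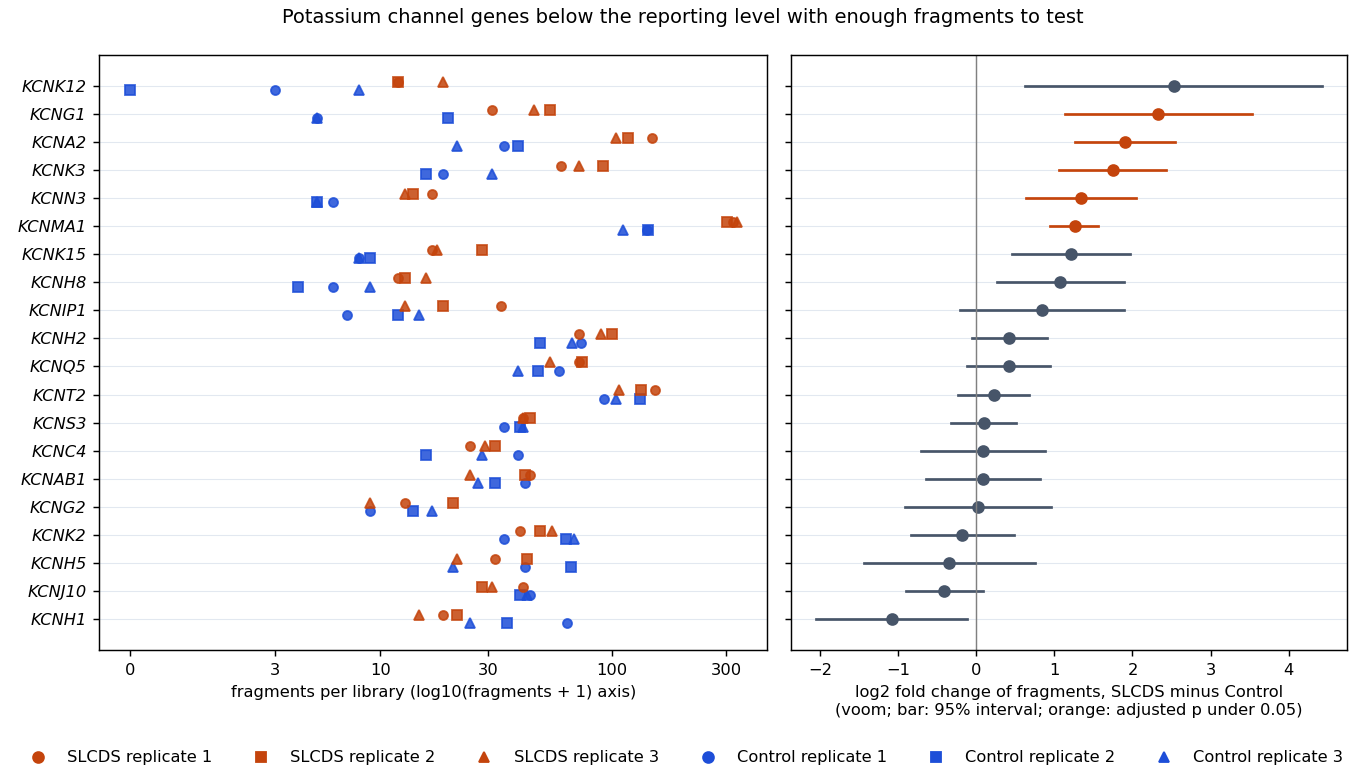
Members below the reporting level with enough fragments to test, 20 of them shown. The left panel gives fragments per library on a log10(fragments + 1) axis, 1 symbol per library; the right panel gives the limma voom log2 fold change of fragments, SLCDS minus Control, with its 95% interval over 6 libraries, orange where the adjusted p is under 0.05. The 5 orange members, KCNG1, KCNA2, KCNK3, KCNN3 and KCNMA1, lie between 1.26 and 2.33, and KCNH1 has the lowest estimate at -1.08.

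The other members that reached 0.5 FPKM had no call in either voom fit. KCNQ5, an M-type channel subunit, was at 0.453 to 0.64 FPKM in SLCDS and 0.333 to 0.521 in Control. KCNT2, a sodium-activated channel, was at 0.431 to 0.625 against 0.395 to 0.557. KCNK2, a mechanosensitive leak channel, was at 0.384 to 0.514 against 0.339 to 0.641. In these 3 genes, in KCNS3 and in KCNH2 the groups overlapped. KCNJ10, the main inward rectifier of mature astrocytes, was at 0.48, 0.325 and 0.347 FPKM in SLCDS and 0.531, 0.484 and 0.498 in Control. The FPKM groups of KCNJ10 were set apart only by 0.48 against 0.484, and its fragments, 42, 28 and 31 against 45, 41 and 44, overlapped (log2 fold change -0.41, SE 0.21, limma voom adjusted p = 0.345, or -0.42 without Control replicate 3). The astrocyte marker GFAP fell in the same libraries, from 312 to 354 FPKM in Control to 127 to 141 in SLCDS, and its part in the KCNJ10 values was not tested.

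The remaining 54 members stayed under 0.5 FPKM in every library, and 41 of the 64 had fewer than 30 fragments in all 6 libraries together. At that depth most of them had too few fragments for the voom test. KCNG4, named here for its call, had 15, 13 and 8 fragments in SLCDS and 2, 0 and 0 in Control. It was outside the voom test and was called higher in the fit with no filter on low values (log2 fold change 0.16, limma adjusted p = 0.0337). The voltage-gated alpha subunits among the 54 included KCNA4, KCNA7, KCNC1, KCNC4, KCNF1, KCNG2, KCNG4, KCNH1, KCNH4, KCNH5, KCNH6, KCNH7, KCNH8, KCNQ3, KCNS1, KCNV1 and KCNV2. The auxiliary subunits were KCNAB1, KCNE1, KCNE1B, KCNE2, KCNE3, KCNE5, KCNIP1 and KCNIP4, of which KCNE1 and KCNE1B are near-identical copies whose reads may have been split. The calcium- and sodium-activated group held KCNN2, KCNN3, KCNT1 and KCNU1, and the BK beta subunits KCNMB1 and KCNMB2. Inward rectifiers in this range were KCNJ1, KCNJ3, KCNJ5, KCNJ6, KCNJ11, KCNJ12, KCNJ13, KCNJ15 and KCNJ16. Leak channels were KCNK4, KCNK5, KCNK6, KCNK7, KCNK9, KCNK10, KCNK12, KCNK13, KCNK15 and KCNK17. KCNRG, whose product regulates channel assembly and forms no pore, was at 0.122 to 0.126 FPKM in SLCDS and 0.0428 to 0.214 in Control, and it shares 818 exonic bases with TRIM13.

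Other genes that handle potassium were read from the same fit. Of 16 partner subunits outside the KCN symbols 6 were tested and none passed, with a median log2 fold change of -0.06 beside 0.00 over all genes. The most abundant was CALM2, a calmodulin gene whose product is the calcium sensor of the small-conductance channels. It was at 188, 176 and 174 FPKM in SLCDS and 221, 214 and 240 in Control, below the controls in each treated library (log2 fold change -0.33, SE 0.08, limma adjusted p = 0.0734, or -0.28 without Control replicate 3). Without Control replicate 3, ADAM22, AKAP9 and CALM2 were called lower and 1 gene of the list higher, where the shares over all genes were 16.0% higher and 11.8% lower. Of 7 hyperpolarization-activated and other potassium-passing channels 5 were tested and none passed, with a median of -0.05. TMEM175, a lysosomal potassium channel, was the most abundant of these at 42.4, 43.2 and 43.3 FPKM against 44.4, 45.9 and 59.4 (log2 fold change -0.20, SE 0.11, limma adjusted p = 0.424, or -0.07 without Control replicate 3). HCN2 and TMEM38B were called higher and none lower without Control replicate 3, beside the same 16.0% and 11.8%.

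Of 14 sodium-potassium pump genes 6 were tested, and ATP1B1 rose, with a median of -0.16 over the 6. ATP1B1, a beta subunit of the pump that restores the potassium gradient, was at 81.2, 72.4 and 78.0 FPKM in SLCDS and 47.5, 46.2 and 52.0 in Control. The groups were well apart, and it rose by 0.66 on the log2 scale (SE 0.08, limma adjusted p = 0.00393), or by 0.71 without Control replicate 3. Without Control replicate 3, ATP1B1 was called higher and 3 genes of the list lower, among them ATP1B2, beside 16.0% higher and 11.8% lower over all genes.

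Of 13 genes of potassium-chloride cotransport and its kinases 7 were tested, and SLC12A7 rose, with a median of 0.18 over the 7. SLC12A7, a potassium-chloride cotransporter, was at 1.81, 1.54 and 1.44 FPKM in SLCDS and 0.0561, 0.131 and 0.117 in Control. Like KCNN1 it entered the test through its SLCDS libraries alone, and it rose by 1.23 on the log2(FPKM + 1) scale (SE 0.08, limma adjusted p = 0.000551), or by 1.24 without Control replicate 3. SLC12A4, the most abundant of the list, was at 27.7 to 30.5 FPKM against 28.1 to 29.5, with overlapping groups and a log2 fold change of 0.02, or 0.03 without Control replicate 3. Without Control replicate 3, SLC12A2 was also called higher and none lower, beside 16.0% and 11.8% over all genes.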

How the data were processed

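Per the labels' protocols, TRIzol RNA of 6 U251 libraries was prepared with a VAHTS Universal V6 kit. The deposited values are FPKM, 1 table per library, which the authors computed. Aligner, counter and annotation: not given in the sources used here. Both builds in the submitters' processing notes, GRCm38 and mm10, are of mouse, although line and symbols are human, so the genome used is unclear. Genes at the reporting level (FPKM of 1 or above, 3 libraries or more) were fitted on log2(FPKM + 1) with limma 3.58.1 in R 4.3.3 (trended prior, 2-sided, Benjamini-Hochberg over 11506 genes), and called at an adjusted p under 0.05. The fit was tested on simulated data.

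FPKM values were whole multiples of 1 fragment's worth, within 0.02 fragments, for 99.99% of genes. The smallest whole numbers that fit were taken as fragments (a common factor would not show) for limma voom. The series names no genome for coordinates, so promoters and overlaps come from RefSeq GRCh38.p14 and GENCODE v29. Called members also share exonic bases with genes on the opposite strand. These were 506 for KCNK15, 434 for KCNG1, 288 for KCNMA1, 260 for KCNJ4 and 185 for KCNJ2. The members, lists and classes were chosen with earlier results of these data known. All tested members, members that reached 0.5 FPKM, and of each list the called and, with under 2 called, the most abundant genes are named, with exceptions stated. Some genes this rule picks are not reported here, though counts and sums include them. Other steps used Python 3.11.15, pandas 2.3.3, numpy 2.4.6, matplotlib 3.10.9 and scipy 1.17.1. Alternatives were other pseudocounts, filters, scalings, variance priors, library weights, a replicate block, a length correction and libraries left out.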

Additional observations from a re-analysis of the deposited data

How the results depend on the processing

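The 5 calls among the members became 8 with no filter on low values, 1 with a mean FPKM of at least 5 (3 members tested), 10 with voom and 16 with voom without Control replicate 3. Leaving out 1 library gave 2 to 5. The 701 calls over all genes became 324 with a mean FPKM of at least 5, 3277 with array weights, 455 with the replicate block, 1530 with the length trend removed and 3902 with voom without Control replicate 3, and 276 to 3191 with 1 library left out. Voom and the length correction were chosen after seeing the data. KCNE4 passed in every alternative. KCNJ2 was also lost with a common FPKM sum (limma adjusted p = 0.0526), and KCNJ4 with no filter (limma adjusted p = 0.0541). No member changed sign while called. Deviations of same-numbered libraries correlated at -0.326, 0.36 and 0.065, and 1 of 3 SLCDS libraries correlated best with its own number. Control replicates 1 and 2 gave near-equal values, such as -0.326 and -0.312 with SLCDS replicate 1. These correlations therefore cannot decide whether the replicate numbers pair the libraries. With the replicate block 4 members were called, KCNJ2 being lost (limma adjusted p = 0.0508).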
